A study of Caenorhabditis elegans with 9 samples.

Results

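The aspartic proteases of *Caenorhabditis elegans*, leaving out *hrg-7* (formerly *asp-10*), were followed across 3 hemin concentrations. The members were the probe sets whose only gene symbol in the array's annotation was 1 of 10 asp genes, and 12 of the 22625 probe sets met this rule. They stood for 9 genes, *asp-1*, *asp-3*, *asp-4*, *asp-5*, *asp-6*, *asp-8*, *asp-12*, *asp-13* and *asp-14*. The 10th gene, *asp-2*, was the only symbol of no probe set and was not analysed here. The members were chosen by gene name, while the family itself was taken up with the log2 differences between the hemin groups of these arrays known. The members' values are therefore given as a description, and nothing is supported with the calls made on them.

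Worms were grown without bacteria in mCeHR-2, a liquid medium of known composition, and received hemin, the chloride of heme, at 4, 20 or 500 uM. Synchronised larvae of the F2 generation were put back into this medium and total RNA was taken at the late L4 stage, from 3 biological replicates (A, B and C) per concentration, each on 1 Affymetrix whole genome array. Per the labels the groups thus shared medium, stage and generation and differed in hemin, and the study set 4 uM (low supply) and 500 uM (excess) against 20 uM. The sources used here do not name the strain. All values are log2 expression values normalized by the authors, and a difference of 1 is a doubling. On whole-animal RNA, fewer cells of a type and less RNA per cell cannot be told apart.

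Aspartic proteases cut proteins with a pair of aspartate residues in their active site and most work in acid. The animal enzymes resemble pepsin, which digests food in the gut, and cathepsin D, which breaks down proteins in lysosomes. In *C. elegans* several are made by the intestine, a tissue that both digests food and takes up heme, an iron porphyrin the worm cannot make. ASP-3 and ASP-4 are known for their part in necrotic death of neurons. The relative HRG-7 is a secreted signal of low heme from the intestine.

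The array least like the rest was replicate A at 4 uM, with Spearman correlations across probe sets of 0.973 to 0.985, where any pair of the remaining 8 arrays reached at least 0.990. Of 9 measured intestine markers 0 passed the limma threshold in any comparison, with 1, 1 and 0 at an unadjusted p under 0.05 for 4 minus 20, 500 minus 20 and 500 minus 4. The log2 of their summed level was 13.04 to 13.34 at 4 uM, 13.09 to 13.18 at 20 uM and 13.09 to 13.31 at 500 uM. Of these 9 markers 8 read higher at 4 than at 20 uM (median 0.07), as *asp-8* did. Likewise 8 of the 9 read higher at 500 than at 20 uM (median 0.07), as *asp-12* did. Between 500 and 4 uM 6 read lower and 3 higher (median -0.04), and the part of these markers in the results was not tested. Body wall muscle, pharynx, hypodermis, neuron and germline markers also had 0 passed in every comparison by limma, and at most 1 of each list had an unadjusted p under 0.05. The 4 pharynx markers all read lower at 4 than at 20 uM (median -0.26), as *asp-12* and *asp-14* did, with a log2 summed level of 11.21 to 11.53 at 4 uM, 11.39 to 11.94 at 20 uM and 11.49 to 11.85 at 500 uM, and their part in the results was not tested. All 4 also read higher at 500 than at 4 uM (median 0.26), as *asp-12* and *asp-14* did. The 5 body wall muscle markers all read higher at 4 than at 20 uM, as *asp-8* did (median 0.07, summed level 13.39 to 13.60 against 13.36 to 13.52). All 5 read lower at 500 uM (13.28 to 13.44) than at 20 uM (median -0.09) and than at 4 uM (median -0.13), again as *asp-8* did, and their part was not tested either.

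Of the 9 genes, *asp-8*, *asp-12* and *asp-14* moved by more than 1 log2 unit between hemin groups, and each did so with its own profile. *asp-8* read high at low hemin, *asp-12* read high at excess hemin, and *asp-14* read high at the middle concentration. No member passed the limma threshold for 500 against 20 uM. The means of the other 6 genes spanned 0.05 to 0.34 between the highest and lowest group, at most 1.26-fold, over 9 probe sets.

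**Figure D1:**
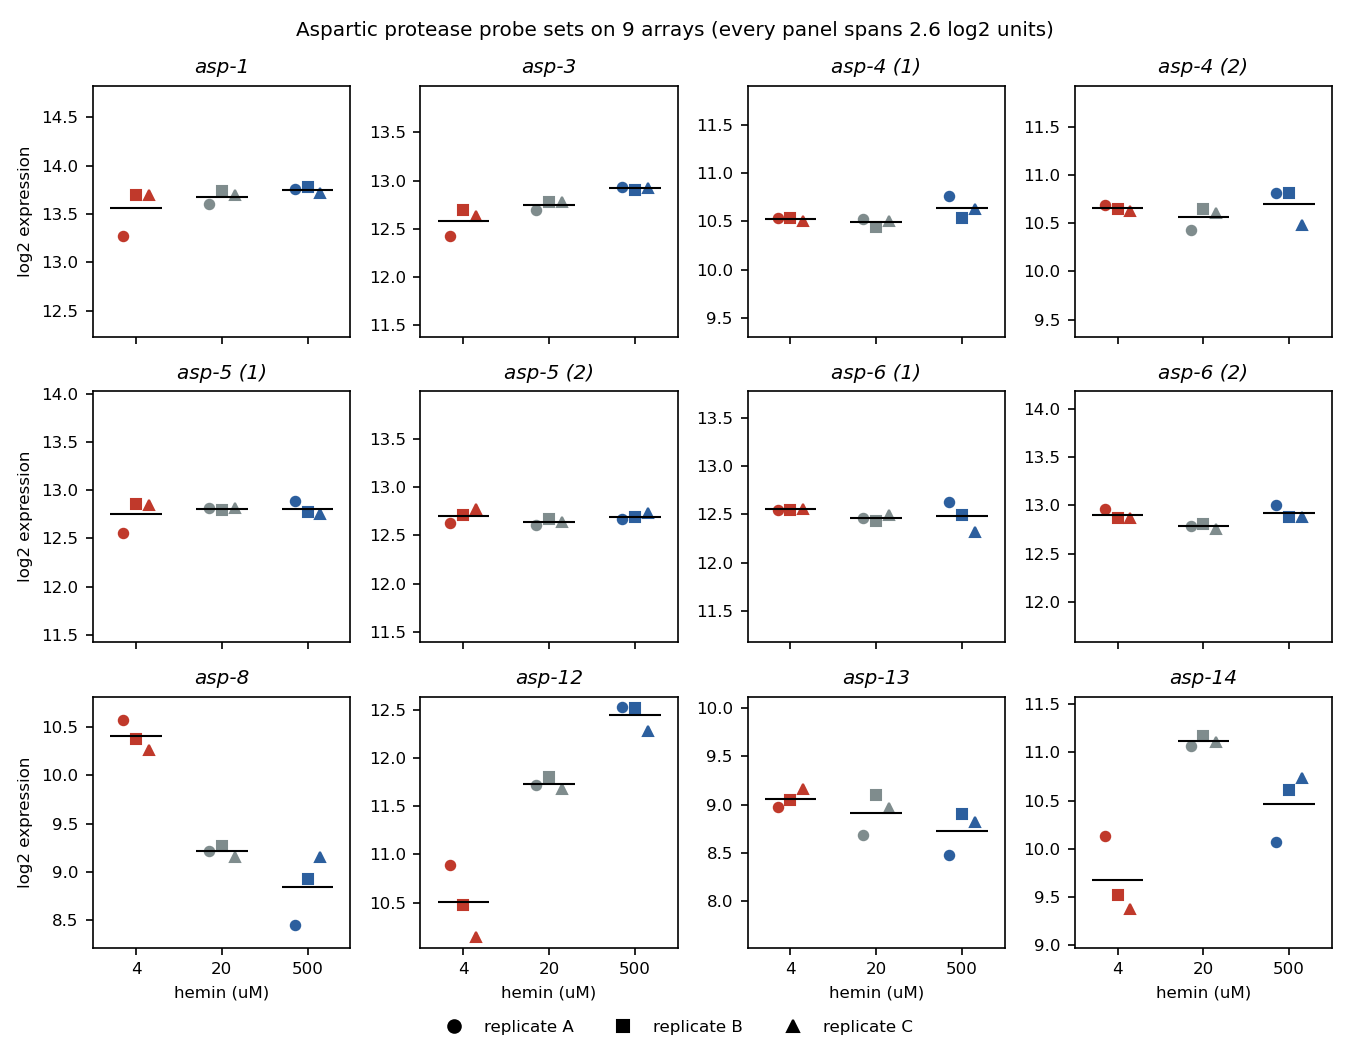
Log2 expression of the 12 member probe sets (vertical axis) at 4, 20 and 500 uM hemin, with 1 symbol per array, its shape giving the replicate, and a line at each group mean. *asp-8* steps down from 10.40 to 8.84, *asp-12* steps up from 10.50 to 12.44, and *asp-14* is highest at 20 uM (11.11), while the remaining panels are nearly flat.

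*asp-12* (F21F8.4) read higher at each higher hemin concentration. Its values were 10.89, 10.47 and 10.14 on the 4 uM arrays A, B and C, 11.72, 11.80 and 11.68 on the 20 uM arrays, and 12.53, 12.51 and 12.28 on the 500 uM arrays. Every array of a higher concentration lay above every array of the lower ones, and the 3 low-hemin arrays lay farther apart than the 20 uM arrays. The group means were 10.50 ± 0.38, 11.73 ± 0.06 and 12.44 ± 0.14 (SD, n = 3 arrays each). The mean at 4 uM was lower than at 20 uM by 2.34-fold, with a log2 difference of -1.23 (SE 0.16), and that at 500 uM was higher than at 20 uM by 0.71 (SE 0.16), or 1.63-fold, which did not pass limma's threshold (adjusted p = 0.170). Between the ends of the dose range the difference was 1.94 (SE 0.16), or 3.83-fold.

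*asp-8* (F59D6.3) ran the other way. It read 10.58, 10.38 and 10.26 on the 4 uM arrays, 9.22, 9.27 and 9.15 on the 20 uM arrays, and 8.46, 8.93 and 9.15 on the 500 uM arrays. The low-hemin arrays stood clear of all others, whereas the 500 uM arrays lay far apart, and replicate C among them read the same to 2 decimals as 20 uM replicate C. The means were 10.40 ± 0.16, 9.22 ± 0.06 and 8.84 ± 0.35 (SD, n = 3 arrays each). The mean at 4 uM was higher than at 20 uM by 1.19 (SE 0.16), or 2.28-fold. The mean at 500 uM differed from that at 20 uM by -0.37 (SE 0.16), which did not pass limma's threshold (adjusted p = 0.725). The 500 uM mean was 2.95-fold lower than the 4 uM mean, a log2 difference of -1.56 (SE 0.16).

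*asp-14* (K10C2.3) was highest at 20 uM. It read 10.13, 9.52 and 9.38 at 4 uM, 11.06, 11.17 and 11.11 at 20 uM, and 10.07, 10.61 and 10.73 at 500 uM. All 20 uM arrays lay above the other 6, and the ranges at 4 and 500 uM overlapped, since 500 uM replicate A read 10.07 and 4 uM replicate A 10.13. The means were 9.68 ± 0.40, 11.11 ± 0.06 and 10.47 ± 0.35 (SD, n = 3 arrays each). The difference from 20 uM was -1.44 (SE 0.21) at 4 uM, 2.70-fold lower, and -0.64 (SE 0.21) at 500 uM, 1.56-fold lower. That at 500 uM did not pass limma's threshold (adjusted p = 0.47) and was -0.44 without 500 uM replicate A. The 500 uM mean was 0.79 (SE 0.21) above that at 4 uM. Both comparisons with 20 uM share its 3 arrays, so they are not independent of each other.

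*asp-3* (H22K11.1), which encodes a cathepsin D-like enzyme, showed the same order as *asp-12* in much smaller steps. Its values were 12.43, 12.69 and 12.63 at 4 uM, 12.70, 12.78 and 12.78 at 20 uM, and 12.93, 12.91 and 12.93 at 500 uM. No array of 1 group reached into the next, although 4 uM replicate B (12.69) and 20 uM replicate A (12.70) nearly met. The mean at 500 uM was 0.34 (SE 0.07), or 1.26-fold, above that at 4 uM, and the steps around 20 uM were -0.17 at 4 uM and 0.17 at 500 uM (SE 0.07 each). Such strict order of all 9 arrays from 4 to 500 uM, held by 2 of the 12 member probe sets, was found for 0.39% of the 16911 probe sets tested. The strict reverse order, held by *asp-8* although 20 uM and 500 uM replicates C both read 9.15, was found for 0.532%, and 20 uM arrays above all others, as for *asp-14*, for 1.23%.

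The remaining members varied little with hemin, *asp-13* most among them, by 0.33 between group means. *asp-1* (Y39B6A.20), an intestinal protease, read 13.28 on 4 uM replicate A and 13.60 to 13.78 on the other 8 arrays, and its group means were 13.56 ± 0.24, 13.68 ± 0.07 and 13.75 ± 0.03 at 4, 20 and 500 uM (SD, n = 3 arrays each). Its difference of -0.12 at 4 against 20 uM was 0.02 without that array. For *asp-4* (R12H7.2), the other cathepsin D-like gene of necrosis, both probe sets differed from 20 uM by 0.03 and 0.09 at 4 uM and by 0.15 and 0.14 at 500 uM (SE 0.08 and 0.10). The highest reading of its first probe set was 10.76 on 500 uM replicate A, and the lowest 10.44 on 20 uM replicate B.

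*asp-5* (F21F8.3) and *asp-6* (F21F8.7), whose genes lie on either side of *asp-12*, were each measured by a pair of probe sets. The *asp-5* pair disagreed in sign in all 3 comparisons, at differences between -0.05 and 0.06. On 4 uM replicate A the first *asp-5* probe set read 12.56, against 12.76 to 12.89 on the other 8 arrays. The *asp-6* pair was above the 20 uM arrays on every 4 uM array, by means of 0.09 (SE 0.08) and 0.12 (SE 0.06). At 500 uM the *asp-6* differences from 20 uM were 0.02 and 0.14. *asp-13* (F28A12.4) had means of 9.06 ± 0.10, 8.91 ± 0.21 and 8.73 ± 0.22 at 4, 20 and 500 uM (SD, n = 3 arrays each), with overlapping arrays except between 4 and 500 uM. Its 500 minus 4 difference was -0.33 (SE 0.14), with a limma p of 0.0388 unadjusted and 0.380 adjusted. Over these probe sets, with both *asp-1* and *asp-3* included, the 95% intervals of all differences, not adjusted for their number, lay between -0.64 and 0.50. By the naming of this array type, 7 of the 12 probe sets carry the suffix for probes that may match several transcripts, those of *asp-4*, *asp-6*, *asp-13* and *asp-14* and 1 of *asp-5* among them. The *asp-8* and *asp-12* probe sets do not carry it.

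**Figure D2:**
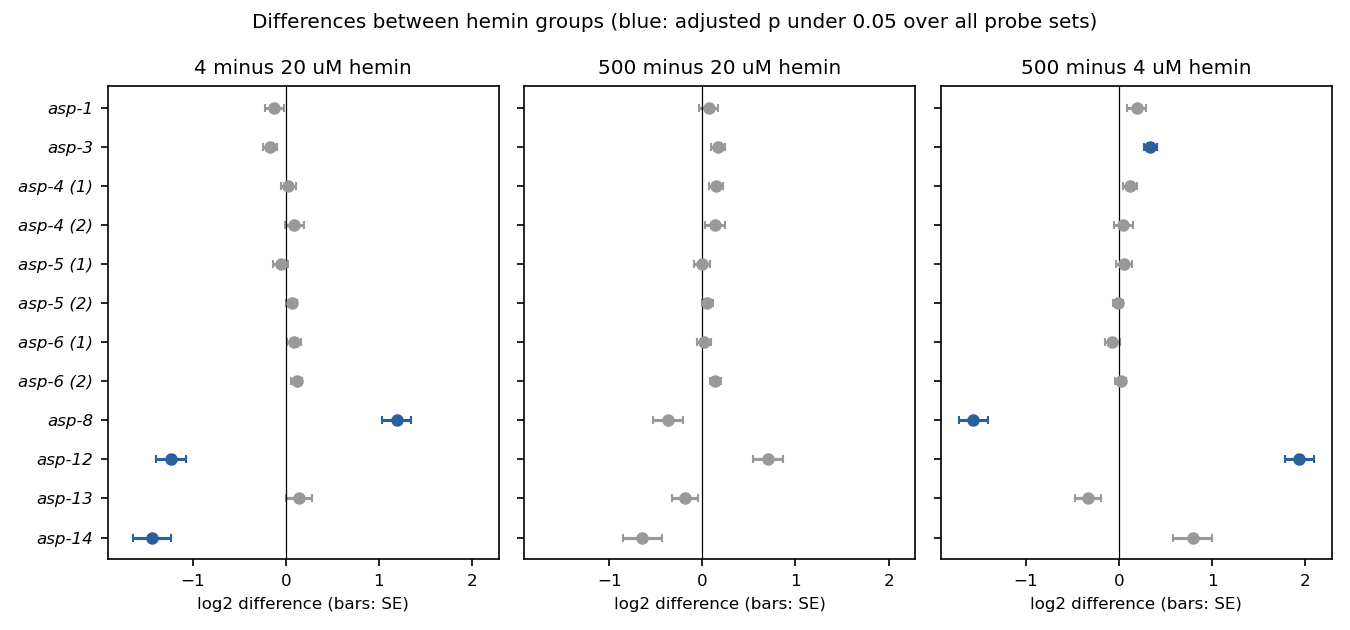
Log2 differences (horizontal axis, bars of 1 SE) of the 12 member probe sets between the hemin groups, in blue where limma's adjusted p over all probe sets was under 0.05. *asp-8* and *asp-12* lie on opposite sides of 0 in every panel, and *asp-14* lies below 0 against 20 uM in both comparisons.

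Read against the whole array, 3 of the 12 member probe sets passed the limma threshold (adjusted p under 0.05 over all probe sets) for 4 against 20 uM, where 0.911% of all tested probe sets did. These were *asp-8* (adjusted p = 0.00667), *asp-12* (0.00568) and *asp-14* (0.00922). For 500 against 20 uM 0 of 12 passed in limma, where 0.242% of all did. For 500 against 4 uM 3 of 12 passed, *asp-12* (limma adjusted p = 0.000219), *asp-8* (0.000964) and *asp-3* (0.0457), where 2.07% of all did. At an unadjusted p under 0.05 by limma there were 4, 5 and 5 of the 12 for the 3 comparisons in this order, against 8.7%, 6.65% and 11.9% of all. Since the family was taken up with these values known, these counts describe the members and nothing is read from them. The median difference of the 12 probe sets was 0.05, 0.06 and 0.05 for the 3 comparisons in this order, against 0.02, 0.01 and 0.00 over all probe sets tested. The groups did not overlap for 6, 6 and 5 of the 12, against 13.4%, 16.8% and 14.6% of all. A difference of at least 1.6-fold, the size the study named, was found for 3, 1 and 3 of the 12, against 1.82%, 1.63% and 3.38% of all.

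The calls of *asp-8* and *asp-12* stayed in all 9 fits that left out 1 array, with limma adjusted p up to 0.0464 and 0.0427 for 4 against 20 uM. The *asp-14* call at 4 uM was lost without 4 uM replicate B (0.0556), 20 uM replicate A (0.0565) or 20 uM replicate B (0.0609), with adjusted p from 0.000522 over those fits. Without 4 uM replicate A the differences of *asp-12* and *asp-14* at 4 uM were -1.42 and -1.66, and that of *asp-8* was 1.10. There 2 further calls were made by limma. *asp-12* was called for 500 against 20 uM (adjusted p = 0.0108, against 0.170 with all arrays and up to 0.572 without others). That *asp-12* call was also made with only the 6 arrays compared (limma adjusted p = 0.0090) and with array weights (0.00725). *asp-14* was called for 500 against 4 uM (0.00985, against 0.109 with all arrays and up to 0.395 without others), and also with array weights (0.00197). The *asp-3* call was lost without 4 uM replicate B or any 20 or 500 uM array (0.0614 to 0.152), with the replicate letter as a block (0.0581), and in 4 other settings, at up to 0.179 in the fit of only the 6 arrays compared.

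**Figure D3:**
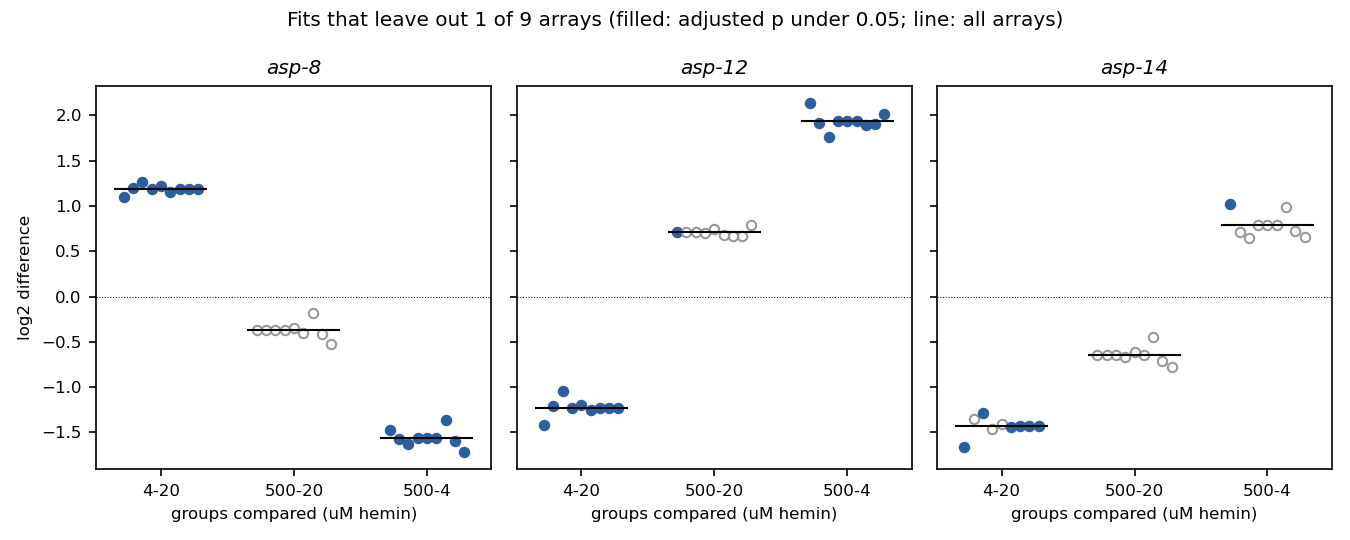
Log2 differences (vertical axis) of *asp-8*, *asp-12* and *asp-14* in the 9 fits that leave out 1 array, for each pair of hemin groups (horizontal axis), with filled points where limma's adjusted p was under 0.05 and a line at the value from all arrays. No point crosses 0, and the 500 minus 4 difference of *asp-14* is largest, at 1.02, without 4 uM replicate A.

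The positions of the genes were compared by their order in assembly WBcel235. Of the 10 named genes 7 lie on chromosome V and 3 on chromosome X. *asp-12* sits between *asp-6* and *asp-5* in a run of 4 adjacent asp genes on chromosome V, which ends with the pseudogene *asp-11*. Its neighbours did not share its profile: against the -1.23 of *asp-12* at 4 minus 20 uM, the brighter probe sets of *asp-6* and *asp-5* differed by 0.12 and -0.05, and at 500 minus 20 uM by 0.14 and 0.00. *asp-11* read 3.08 to 3.53 on the 9 arrays, below the limit of 3.75 under which probe sets were left out of the tests, and differed by -0.19 (SE 0.11) at 4 uM in the fit without that limit. No test of the difference between neighbouring genes was made.

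*asp-8* has *asp-7* (F59D6.2), an aspartic protease gene outside the members, as its next gene on chromosome V. *asp-7* read 4.43, 4.39 and 4.63 at 4 uM, 3.92, 3.99 and 3.83 at 20 uM and 3.79, 3.75 and 3.88 at 500 uM, close to the limit on dim probe sets. As for *asp-8*, its 4 uM arrays lay above all others. Its 20 and 500 uM arrays overlapped, and those of *asp-8* met at 9.15. *asp-7* rose by 0.57 (SE 0.09, limma adjusted p = 0.0227) at 4 against 20 uM, and the 500 uM mean was 0.68 (SE 0.09, adjusted p = 0.00473) below that at 4 uM. The rise was lost without 4 uM replicate C or any 20 uM array (adjusted p 0.0685 to 0.116), as well as under quantile normalization (0.0676), with replicate letters as a block (0.0577) or when only the 6 arrays compared were fitted (0.0879). Whether its probes also catch transcripts of *asp-8* was not tested.

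**Figure D4:**
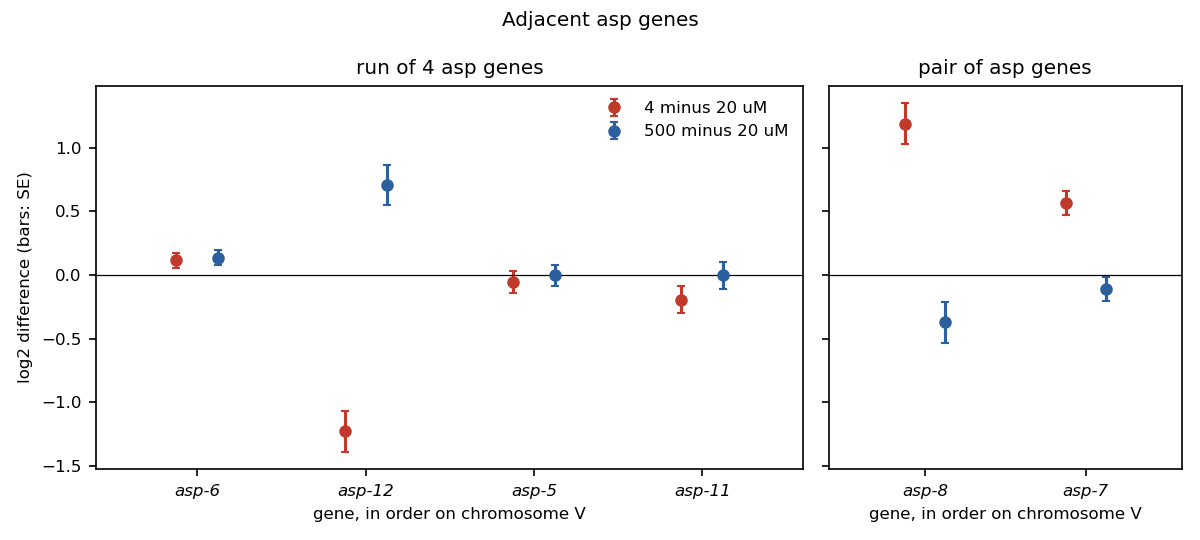
Log2 differences from 20 uM (vertical axis, bars of 1 SE) at 4 uM (red) and 500 uM (blue) hemin for adjacent asp genes in their order on chromosome V, with the brighter probe set where a gene has several and *asp-11* from the fit without the limit on dim probe sets. *asp-12* stands apart from the genes on both sides of it, whereas *asp-8* and *asp-7* are both above 0 at 4 uM.

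The other 5 asp genes outside the members read low or changed little. *asp-9*, *asp-15* and *asp-19* read between 2.71 and 4.12 on every array and, with *asp-11*, fell below the limit on dim probe sets. *asp-17* read 5.63 to 5.94, with 4 uM above 20 uM by 0.23 (SE 0.08, limma adjusted p = 0.410). Probe set means of the 6 asp genes outside the members were 2.90 to 5.75, while those of the members were 8.90 to 13.66 and all 12 passed the limit on dim probe sets. Whether these levels entered the choice of the members is not known here.

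The relative *hrg-7* (C15C8.3) had the order of *asp-8* on a larger scale. It read 12.44 to 12.66 at 4 uM, 8.24 to 8.73 at 20 uM and 7.27 to 7.56 at 500 uM, a difference of -5.15 (SE 0.14) between 500 and 4 uM against -1.56 for *asp-8* and 1.94 for *asp-12*. Across the 9 arrays Pearson's r with *hrg-7* was 0.960 for *asp-8*, -0.965 for *asp-12* and -0.718 for *asp-14*. These values share arrays and normalization and are given as descriptions.

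The probe sets whose profile was most like that of a member were ranked by Pearson's r over the 9 arrays, among named probe sets past the limit on dim ones. For *asp-8* they were *itr-1* (r = 0.992), the receptor that releases calcium from the endoplasmic reticulum, *cpr-8* (0.980), a cathepsin B-like cysteine protease gene, and the eggshell gene *perm-2* (0.975). For *asp-12* they were the lysosomal lipase gene *lipl-1* (0.988), the C-type lectin gene *clec-52* (0.984) and *fat-5* (0.975), which encodes a fatty acid desaturase. For *asp-14* they were the cysteine protease gene *cpr-1* (0.968), C01H6.8 (0.966) and the C-type lectin gene *clec-49* (0.960). As an example of their levels, *lipl-1* had means of 8.01 ± 0.48, 9.48 ± 0.15 and 10.09 ± 0.15 at 4, 20 and 500 uM (SD, n = 3 arrays each). C01H6.8 was dim and moved little, with means of 4.35 ± 0.10, 4.56 ± 0.04 and 4.48 ± 0.08 in the same order. The probe sets of *itr-1*, *perm-2* and *clec-49* carry the suffix for probes that may match several transcripts.

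**Figure D5:**
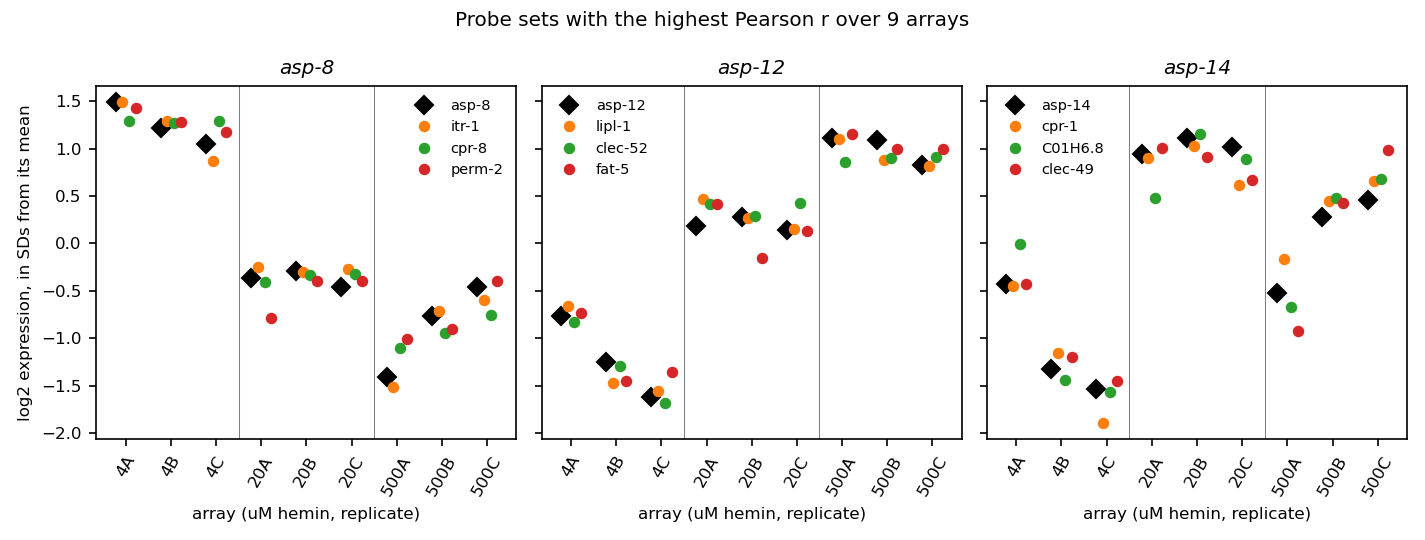
Log2 expression of *asp-8*, *asp-12* and *asp-14* (black diamonds) and of the 3 probe sets most like each (circles), in SDs from the probe set's own mean over the 9 arrays (vertical axis), by array (horizontal axis). Within the 500 uM group *asp-8* and *asp-14*, each with its 3 companions, are lowest on replicate A.

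Other proteases and lysosomal genes were counted from lists that held no asp genes. These lists were chosen with earlier results of these data known, so their calls are given as a description. Of 11 cysteine cathepsins 2 rose and 1 fell at 4 against 20 uM by limma, 8 did not pass, where 0.911% of all probe sets passed in either direction, and the median difference was 0.15, against 0.02 for all probe sets. *cpr-8* rose by 2.58 (SE 0.13, adjusted p = 9.39e-06), *cpr-5* rose by 0.62 (SE 0.11, adjusted p = 0.0284) and *cpr-1* fell by 0.65 (SE 0.11, adjusted p = 0.0302). The lowest difference of the list, -0.97, belonged to a gene that did not pass. At an unadjusted p under 0.05 by limma there were 4, 3 and 4 of the 11 for 4 minus 20, 500 minus 20 and 500 minus 4. Of all probe sets 8.7%, 6.65% and 11.9% had such a p. At 500 against 20 uM *cpr-3* rose by 1.10 (SE 0.16, limma adjusted p = 0.0240) and *cpr-8* fell by 0.91 (SE 0.13, adjusted p = 0.0241). The other 9 of the 11 did not pass, where 0.242% of all probe sets did, and the list's median was 0.02, against 0.01 for all. For 500 against 4 uM *cpr-8* fell by 3.48 and *cpr-5* by 0.93, and *cpr-3* rose by 0.81. There 8 did not pass, where 2.07% of all probe sets did, and the list's median was -0.10, against 0.00 for all. Like *asp-8*, *cpr-8* read higher on every 4 uM array (9.54 to 9.58) than on any 20 uM array (6.90 to 7.04), and lowest at 500 uM (5.81 to 6.37). *cpr-1* resembled *asp-14*, with 12.21 to 12.67 at 4 uM, 13.01 to 13.15 at 20 uM and 12.77 to 13.03 at 500 uM.

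Some of these calls depended on single arrays, written here as concentration and letter. The *cpr-8* calls that involve 4 uM held when any 1 array was left out, and so did that of *cpr-5* between 500 and 4 uM. Leaving out 4B, 4C, 20A, 20C or 500C ended the *cpr-5* call at 4 against 20 uM (limma adjusted p up to 0.160), as did centring each array on its median. For *cpr-1* the call ended on leaving out 4B, 500B, 500C or an array of the 20 uM group (up to 0.156), and in 4 further settings, quantile normalization and the replicate letter as a block among them. At 500 against 20 uM, *cpr-3* and *cpr-8* were both no longer called on leaving out 500A, 500B or an array of the 20 uM group, nor was *cpr-8* on leaving out 4B (up to 0.160). The *cpr-3* call at 500 against 4 uM (adjusted p = 0.0286) ended on leaving out 4A, 20C, 500A or 500B or with only 6 arrays fitted (up to 0.134). The *cpr-3* probe set carries a suffix for probes that may match other genes.

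Of 7 serine carboxypeptidases of the cathepsin A type, which trim proteins from their carboxyl end, 2 rose at 4 against 20 uM by limma and 5 did not pass, where 0.911% of all probe sets passed, and the median was 0.13, against 0.02 for all. *ctsa-4.1* rose by 2.84 (SE 0.19, adjusted p = 5.28e-05) and *ctsa-4.2* by 1.42 (SE 0.13, adjusted p = 0.00057), and both calls held without any 1 array. At 500 against 20 uM 0 of 7 passed in limma, where 0.242% of all probe sets did. An unadjusted p under 0.05 was found for 2 of the 7, against 6.65% of all. Of the 7 genes 6 read higher at 500 than at 20 uM, with a median of 0.16, against 0.01 for all. At 500 against 4 uM 2 of 7 fell, where 2.07% of all probe sets passed: *ctsa-4.1* fell by 2.60 (SE 0.19, limma adjusted p = 9.71e-05) and *ctsa-4.2* fell by 0.97 (SE 0.13, adjusted p = 0.00355). Both calls held without any 1 array, and the list's median there was 0.03, against 0.00 for all. Of 19 subunits of the V-ATPase, the proton pump of the lysosome, 0 passed by limma in any comparison. Of all probe sets 0.911%, 0.242% and 2.07% passed for 4 minus 20, 500 minus 20 and 500 minus 4. From such shares 0 of 19 does not set a list apart. In the same order 1, 0 and 1 subunits had an unadjusted p under 0.05, against 8.7%, 6.65% and 11.9% of all. Their medians were -0.01, 0.05 and 0.04, against 0.02, 0.01 and 0.00 for all. Of 19 genes of the lysosome's membrane and biogenesis 0 passed in any comparison, also with 0 at an unadjusted p under 0.05.

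Among 6 lysosomal glycosidases 1 passed, the alpha-mannosidase gene *aman-1*, which rose by 0.88 (SE 0.17, limma adjusted p = 0.0258) at 500 against 4 uM, a call that ended on leaving out 4B, 500B, 500C or an array of the 20 uM group, or with only 6 arrays fitted (up to 0.130). At an unadjusted p under 0.05 there were 1, 3 and 3 of the 6 for 4 minus 20, 500 minus 20 and 500 minus 4, with median differences of -0.06, 0.33 and 0.26. For this list and the next 3, the values over all probe sets follow in the same order. Of all probe sets 0.911%, 0.242% and 2.07% passed by limma, and 8.7%, 6.65% and 11.9% had an unadjusted p under 0.05. Their median differences were 0.02, 0.01 and 0.00. Of 6 genes that act with *asp-3* and *asp-4* in necrotic death, calpains and calcium channels among them, 1 passed: *itr-1* fell by 0.59 (SE 0.10, limma adjusted p = 0.0120) at 500 against 4 uM, which no longer passed on leaving out 4B or with only 6 arrays fitted (up to 0.0780). In this list 2, 0 and 2 of the 6 had an unadjusted p under 0.05, with medians of -0.12, -0.04 and 0.08. Of 26 tested astacin-type zinc metalloproteases 0 passed by limma in any comparison, with 4, 2 and 1 at an unadjusted p under 0.05. Their medians were 0.11, 0.08 and -0.06, and 18 of the 26 read higher at 4 than at 20 uM. Both cysteine protease inhibitor genes measured, *cpi-1* and *cpi-2*, did not pass either, with 0 at an unadjusted p under 0.05 and medians of -0.11, -0.10 and 0.01.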

How the data were processed

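For each of 9 arrays the deposited values were log2 expression per probe set, normalized by the authors. Per the submitters' processing notes MAS5 and RMA were used, with no versions and no word on which made the table (not given in the sources used here). Values ran from 2.02 to 14.37. Scan dates, detection calls and scanner files did not enter, so neither a background level nor a scan batch could be set, and the number of arrays limits the precision (median SE 0.12). Normalization and probe summary can compress differences of dim probe sets. Any pair of arrays shared 244 to 1081 identical values, so no array was a copy.

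Groups and replicate letters came from the labels. Same-letter arrays deviated together weakly at most (r from -0.15 to 0.29 over 9 pairs, 4 of them over 0.1), so letters were not taken as pairs. Between arrays of different letters r ran from -0.33 (4A with 500B) to 0.31 (4C with 500B). Of 22625 probe sets 77 controls and the dimmest 25% by mean were left out, leaving 16911. Gene names came from the platform annotation, where 20701 of 20766 probe sets with 1 symbol matched WBcel235 by Entrez identifier and 0 symbols changed. Of the asp genes the table names, 6 outside the members had a probe set.

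limma 3.58.1 (R 4.3.3) fitted 1 mean per group, all 9 arrays together (moderated variances with a trend, two-sided, with Benjamini-Hochberg adjustment over all probe sets and a threshold of 0.05). This step was tested on simulated data with independent noise for each value. That test cannot show how an array unlike the rest, such as 4 uM replicate A, affects the calls. Named genes were all members, *hrg-7*, the other asp genes, up to 4 called members of each list per contrast, and the 3 most like probe sets of the 3 members whose group means spanned most. A list gene was represented by its brightest probe set. Members, lists and tests were chosen with earlier results of these data known. Alternatives were other normalizations, filters, variance priors, a replicate block, fits of 6 arrays, array weights, a 1.6-fold threshold and leaving out each array. Python 3.11.15, pandas 2.3.3 and matplotlib 3.10.9 handled tables and figures.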

Additional observations from a re-analysis of the deposited data

How the results depend on the processing

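Of 648 recomputed member differences 645 moved by less than the SD between replicates and 3 by more, all small differences of *asp-4* and *asp-6* at 4 uM when each array was centred on its median. Many of the 645 could not move. Filters, variance priors, the replicate block, fits of 6 arrays and leaving out an array of the third group keep the difference of 2 group means. Small differences could change sign within that SD, as for *asp-1* at 4 minus 20 uM (-0.12, and 0.02 without 4 uM replicate A). None of the called ones changed sign. Member calls numbered 3, 0 and 3 for 4 minus 20, 500 minus 20 and 500 minus 4, and 2 to 3, 0 to 1 and 2 to 4 when 1 array was left out. For 500 minus 20 the count was 1, that of *asp-12*, with only the 6 arrays compared, with array weights and at 1.6-fold. Over all probe sets, the 154, 41 and 350 calls became 86, 203 and 159 with only 6 arrays, 899, 204 and 813 with array weights, and 69 to 315, 8 to 182 and 168 to 682 without 1 array. Over the lists of other proteases and lysosomal genes, the 5, 2 and 7 calls became 3 to 6, 0 to 3 and 5 to 8 without 1 array. Array weights gave 14 and 12 there for 4 minus 20 and 500 minus 4, and the fit of 6 arrays gave 4 for 500 minus 4. With the replicate block 148, 31 and 321 probe sets and 3, 0 and 2 members were called, the loss being that of *asp-3*. The cause of these changes was not tested. Of 432 counts for single lists 398 stayed within 1.5 times, many of them 0 in both fits, which was scored as unchanged. The 3 cysteine cathepsins called for 4 minus 20 became 1 without 4B, 20A, 20C or 500C and 6 with array weights. Without detection calls, values near the lowest of the table, as for *asp-9*, *asp-11*, *asp-15* and *asp-19*, may not be measured levels.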
